A study of Mus musculus with 5 samples.

Results

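Amino acid transporters of the SLC1, SLC3, SLC6, SLC7, SLC36, SLC38 and SLC43 families were described in mouse embryonic stem cells (ESCs) and in ESC-like cells recovered from teratomas. Members were the genes whose symbol places them in 1 of these 7 families and for which a probe set, the group of short probes that reads a gene on the array, carried that symbol alone. This gave 59 transporters among 19938 named genes. Where more than 1 probe set names a gene, the brightest on average is used.

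Cells take up amino acids through carriers that differ in what they move and in what drives them. SLC1, SLC6 and SLC38 carriers mostly use the sodium gradient, SLC36 carriers use protons, and most SLC7 carriers are exchangers, several of which reach the membrane only when bound to an SLC3 heavy chain. Mouse ESCs depend on steady uptake of glutamine and threonine, and when amino acids run short, cells raise a set of genes through the transcription factor ATF4 that includes transporters and enzymes of amino acid synthesis. The families also hold carriers of neurotransmitters, taurine and creatine.

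RNA of 5 cell populations was read on Affymetrix Mouse Gene 1.0 ST arrays, and the deposited values are on a log2 scale, on which a difference of 1 is 2-fold. The parental cells were a B6CBAF1 ESC line. Teratomas were raised under the skin from these cells injected alone into B6CBAF1 mice (homologous injection, 1 array), injected alone into B6D2F1 mice (heterologous injection, 1 array), or injected into B6D2F1 mice together with B6D2F1 fetal fibroblasts (co-injection, 2 arrays that the labels number as batches), and ESC-like cells were grown from each. All cells shared a feeder layer of inactivated ICR fetal fibroblasts and a medium that held 15% serum, 1% nonessential amino acids, 2 mM L-glutamine and leukemia inhibitory factor. The labels give 1 concentration of that factor for all cells, whereas the study's methods give a higher one for cells from teratomas. The part of this factor in what follows was not tested.

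Each condition except co-injection had a single array, so the values below are described by their size and the 2-fold rule. A limma fit that takes its error from the co-injection pair alone, with 1 residual degree of freedom, called 0 of the 19938 named genes at an adjusted p under 0.05 in each of the 5 comparisons, with between 5486 and 6842 at an unadjusted p under 0.05. Array medians lay between 7.48 and 7.54. The co-injection arrays are the only measure of spread: over all named genes they differed by a median of 0.07, by 0.36 at the 99th percentile and by at most 1.01, and whether they stand for separate animals is not stated. Over the transporters the widest gap of this pair was 0.31. All 13 ESC markers had mean values above the median of all deposited values, 7.49, with Pou5f1 between 12.29 and 12.60. Over 2-fold below parental ESCs were 1 of the 13 after homologous injection, 4 after heterologous injection and 0 after co-injection. Of all named genes 1.6%, 1.95% and 1.44% were lower by that rule. Lower by more than 0.5 were 5, 6 and 5 of the 13 markers. By that bound 883, 1062 and 833 of the 11600 named genes with a mean above 7.49 were lower. Markers of fibroblasts stood apart in the heterologous array, where the mean value of 12 of them was 9.16, against 7.40 in parental ESCs, 7.79 after homologous injection, and 7.14 and 7.10 after co-injection. The mean of 6 neural markers was 7.76 in parental ESCs, 8.81 and 9.56 after homologous and heterologous injection, and 8.52 and 8.50 after co-injection. Those of 5 endothelial and 6 macrophage markers lay between 7.05 and 7.51 and between 6.38 and 6.72, but single markers differed from parental ESCs in either direction. In the heterologous array Pecam1 did so by -1.44, Emcn by 0.92 and Lyz2 by 1.16. After homologous, heterologous and co-injection Cd68 differed by -1.31, -0.76 and -0.85, and Cdh5 by 0.49, -0.29 and 0.51.

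Of the 59 transporters, 28 had a mean above 7.49 and are called the brighter members here, and 31 did not. Across the arrays 41 of the 59 stayed within a range of 0.5, among them 28 of the 31 dimmer ones. The share of all named genes within that range, brighter or dimmer, was not counted. Transporters over 2-fold from parental ESCs in at least 1 comparison numbered 4, namely Slc38a5, Slc6a8, Slc38a3 and Slc6a14. After homologous injection 1 transporter was over 2-fold higher (Slc38a3) and 2 were over 2-fold lower (Slc38a5 and Slc6a8), where 1.45% of all named genes were higher and 1.6% lower by that rule. After heterologous injection 0 were higher and 2 were lower (Slc38a5 and Slc6a8), against 3.98% and 1.95% of named genes. After co-injection 1 was higher (Slc6a14) and 2 were lower (Slc38a5 and Slc6a8), against 0.647% and 1.44%. The 3 comparisons share the single parental array.

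**Figure D1:**
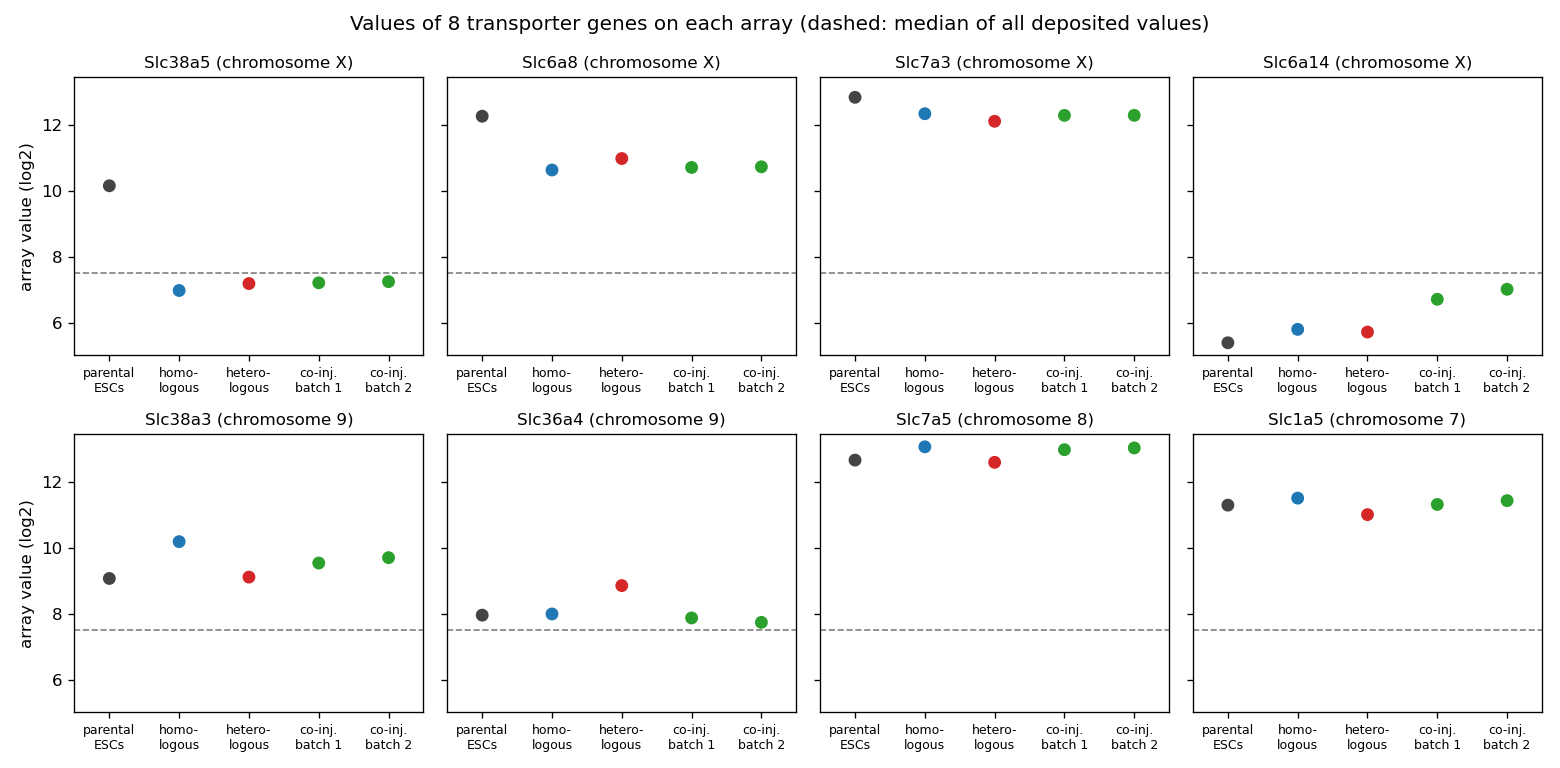
Deposited log2 values (y axis) of 8 transporters, 1 panel each, in each of the 5 arrays (x axis), with 1 point per array coloured by condition and a dashed line at 7.49, the median of all values. Slc38a5 and Slc6a8 stand higher in parental ESCs than in all 4 ESC-like arrays, and Slc38a5 lies under the line in these 4.

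Slc38a5 showed the widest difference of the family. It encodes a system N carrier that exchanges glutamine, asparagine, histidine, serine and glycine with sodium and protons. Its log2 value was 10.16 in parental ESCs, 6.98 after homologous injection, 7.19 after heterologous injection, and 7.21 and 7.24 after co-injection. All 4 ESC-like values lay below the median of all deposited values, so the gene counts among the brighter members only through the parental array. Slc38a5 was 9.07-fold lower than in parental ESCs after homologous injection (-3.18 on the log2 scale), 7.84-fold lower after heterologous injection (-2.97) and 7.62-fold lower after co-injection (-2.93 ± 0.02, SD, n = 2). Counted from the most negative difference among the 19938 named genes, it was in place 4, 8 and 5 in these comparisons. In a population of cells, fewer cells with the RNA and less RNA in each cell cannot be told apart.

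The ESC-like conditions were close to each other for this gene, the heterologous value being 0.21 above the homologous one and the co-injection mean 0.04 above the heterologous one. The 250 bases that end just before the RefSeq start of Slc38a5 (GRCm38.p6, chrX:8271131-8271380, plus strand) are shown because this is the gene with the widest difference, with CpG dinucleotides, the usual sites of DNA methylation, in capitals.
Slc38a5: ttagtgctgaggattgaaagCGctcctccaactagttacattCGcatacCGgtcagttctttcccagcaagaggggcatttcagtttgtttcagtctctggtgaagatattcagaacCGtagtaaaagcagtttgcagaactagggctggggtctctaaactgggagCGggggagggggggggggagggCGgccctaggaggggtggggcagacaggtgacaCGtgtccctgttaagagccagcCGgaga
The stretch holds 8 CpG dinucleotides, where the median is 6 over all 32851 promoter windows in the RefSeq table and 9 over the 61 windows of transporters. Methylation was not analysed here.

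Slc6a8 encodes the creatine transporter, which sits in the SLC6 family although creatine is not one of the amino acids of protein. Its value was 12.27 in parental ESCs, 10.64 after homologous injection, 10.98 after heterologous injection, and 10.71 and 10.73 after co-injection. Every ESC-like array therefore lay more than 1 unit below the parental one, while the co-injection pair differed by 0.02. The gene was 3.10-fold lower after homologous injection, 2.44-fold lower after heterologous injection and 2.92-fold lower after co-injection (-1.55 ± 0.01, SD, n = 2). Unlike Slc38a5, it stayed above 7.49 in all ESC-like arrays.

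Slc38a5 and Slc6a8 both lie on the X chromosome, as do Slc7a3 and Slc6a14. Among X-linked named genes with a mean above 7.49, 359 in number, the median difference from parental ESCs was -0.44 after homologous, -0.47 after heterologous and -0.50 after co-injection, whereas the 11229 autosomal ones had medians of 0, -0.03 and 0.01. Slc7a3, a cationic carrier that brings in arginine and lysine, had smaller differences: it stood at 12.84 in parental ESCs, 12.35 after homologous and 12.12 after heterologous injection, and 12.29 and 12.30 after co-injection. Its differences were -0.50, -0.73 and -0.55, with 160, 81 and 160 of the 359 X-linked genes below it. Slc6a8 was further out, with 12, 20 and 10 of the 359 below it. Slc38a5 had none of the 359 below it, although among all 742 X-linked named genes, dim ones included, it was in place 3, 7 and 4 from the lowest.

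Genes next to Slc38a5 on the X chromosome were also lower. Among the 10 named genes on either side of it, 8 had a mean above 7.49, and their median difference was -0.98, -0.96 and -0.81 after homologous, heterologous and co-injection, with 4, 4 and 3 of them over 2-fold lower. The lowest of these were Porcn at -1.98 after homologous injection, and Ebp at -1.43 and -1.46 in the other comparisons, so Slc38a5 lay below all of its measured neighbours of this kind. Around Slc6a8 the 12 such genes had medians of -0.58, -0.54 and -0.60, and around Slc7a3 the 11 such genes had medians of -0.47, -0.53 and -0.51. The part of the X chromosome as a whole in the values of these transporters was not tested.

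**Figure D2:**
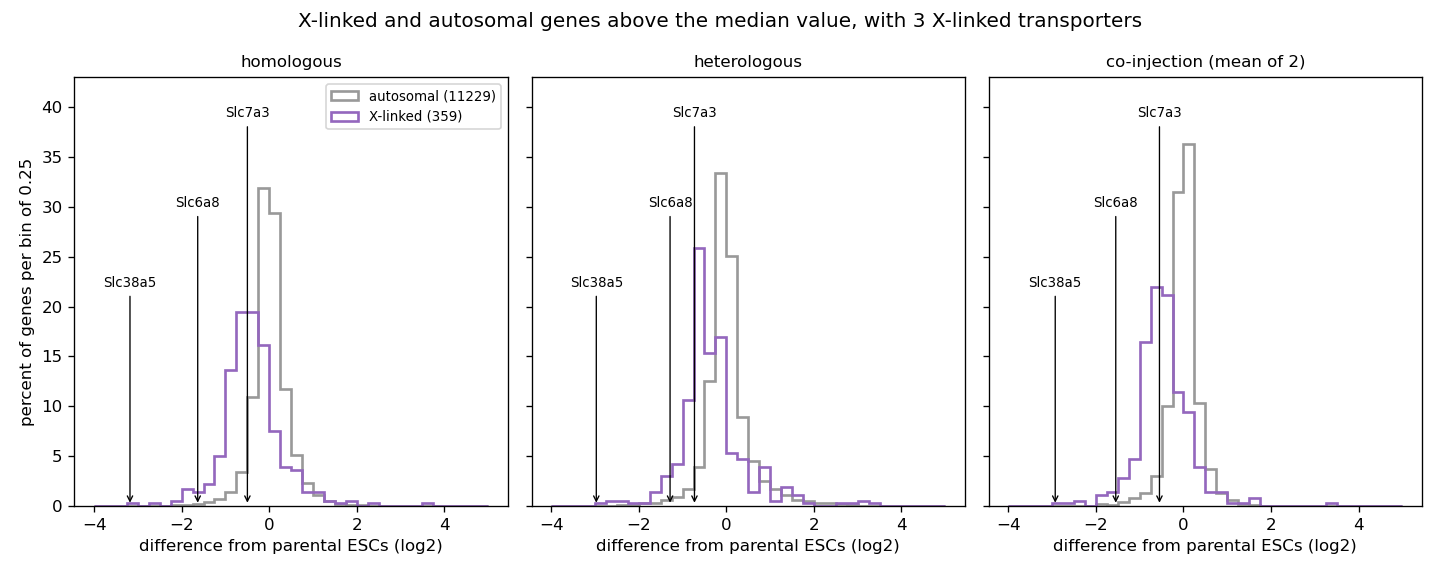
Differences from parental ESCs on the log2 scale (x axis) for X-linked and autosomal genes with a mean above 7.49, as the percent of each set per bin of 0.25 (y axis), 1 panel per condition. Arrows mark Slc7a3 inside the X-linked distribution, Slc6a8 towards its lower end, and Slc38a5 at its lowest bin.

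Slc6a14, also X-linked, went the other way and did so after co-injection. It encodes a carrier of broad reach that takes in neutral and cationic amino acids with sodium and chloride. Its value was 5.39 in parental ESCs, 5.80 after homologous injection, 5.71 after heterologous injection, and 6.71 and 7.01 after co-injection. Both co-injection arrays lay above the other 3, and all 5 values were below the median of all deposited values. The mean after co-injection was 2.78-fold above parental ESCs (1.47 ± 0.22 on the log2 scale, SD, n = 2) and 2.22-fold above the heterologous array. The gap within the pair, 0.30, was exceeded in the family only by that of Slc7a12 (0.31). The 12 brighter genes around Slc6a14 had a median difference of -0.58 after co-injection. The 250 bases that end before its start (GRCm38.p6, chrX:21714650-21714899, plus strand) are shown beside those of Slc38a5 because these X-linked members differed in direction, with CpG dinucleotides in capitals.
Slc6a14: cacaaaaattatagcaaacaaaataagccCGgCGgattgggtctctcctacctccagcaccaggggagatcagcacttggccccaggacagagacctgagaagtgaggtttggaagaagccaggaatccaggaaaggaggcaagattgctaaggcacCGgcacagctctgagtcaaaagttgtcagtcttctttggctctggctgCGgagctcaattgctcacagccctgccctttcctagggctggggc
This stretch holds 4 CpG dinucleotides, against 8 in that of Slc38a5.

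The other system N carrier, Slc38a3, which moves glutamine, asparagine and histidine, lies on chromosome 9 and was higher in part of the ESC-like cells. Its value was 9.07 in parental ESCs, 10.19 after homologous injection, 9.11 after heterologous injection, and 9.54 and 9.70 after co-injection. The homologous array stood highest, the co-injection pair lay between, and the heterologous array was level with parental ESCs. It was 2.17-fold above parental ESCs after homologous injection and 0.55 ± 0.12 (SD, n = 2) above them after co-injection, but only 0.04 after heterologous injection.

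System A carriers, which bring in small neutral amino acids such as alanine, serine and glutamine, had high values in every array. Slc38a2, which cells raise when amino acids are short, stood at 12.57 in parental ESCs, 12.93 after homologous injection, 12.70 after heterologous injection, and 12.94 and 12.89 after co-injection. Slc38a1 ran from 11.69 in parental ESCs to 11.93 in the higher co-injection array. Its second probe set, which was dimmer, differed from parental ESCs by up to 0.54, where the one used here differed by at most 0.23. Slc38a7, a carrier of the lysosome membrane that exports glutamine and asparagine, was 0.51 above parental ESCs after homologous injection, 0.14 after heterologous injection and 0.56 after co-injection. Slc38a9, the lysosomal carrier that reports arginine to mTORC1, was 0.21, 0.46 and 0.09 above them. Its second probe set differed by at most 0.23.

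The carriers of neutral exchange and of glutamate form the SLC1 family. Slc1a5, the main exchanger for glutamine, had values of 11.30 in parental ESCs, 11.51 after homologous injection, 11.01 after heterologous injection, and 11.32 and 11.44 after co-injection. Slc1a4, which exchanges alanine, serine and cysteine, had 9.41, 9.85, 9.18, 9.70 and 9.87 in the same order. Slc1a3, a glutamate carrier best known from glia, had 8.33, 8.86, 8.23, 8.64 and 8.69. For all 3 the heterologous array was the lowest of the 5, and the other ESC-like arrays were above parental ESCs. Slc1a1, a glutamate carrier that also takes in cysteine, had a mean below 7.49 and was highest in parental ESCs, at 7.28 against 6.50, 6.79, 6.83 and 6.82.

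The SLC3 and SLC7 exchangers pair a heavy with a light chain, and no brighter one of either kind passed 2-fold. Slc3a2, the heavy chain that carries most of them to the membrane, ran from 12.76 to 12.97, a range of 0.21 over the arrays. Slc7a5, its partner for leucine and other large neutral amino acids, stood at 12.67 in parental ESCs, 13.07 after homologous injection, 12.60 after heterologous injection, and 12.98 and 13.04 after co-injection. Slc7a6 and Slc7a7, which exchange cationic for neutral amino acids, were higher in all 4 ESC-like arrays: Slc7a6 by 0.73, 0.38 and 0.76 and Slc7a7 by 0.39, 0.38 and 0.44 after homologous, heterologous and co-injection. Slc7a8, another partner for neutral amino acids, was 0.80, 0.31 and 0.36 above parental ESCs. The differences given for Slc7a6, Slc7a7 and Slc7a8 exceeded the widest gap of the co-injection pair among the transporters, 0.31, with the exception of Slc7a8 after heterologous injection. That gap, of the dim gene Slc7a12, does not measure the spread of the homologous, heterologous or parental condition.

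Slc7a11 encodes the cystine and glutamate exchanger that feeds glutathione synthesis and is a known target of ATF4. It had a mean below 7.49, with 6.53 in parental ESCs, 7.13 after homologous injection, 7.08 after heterologous injection, and 7.10 and 7.26 after co-injection. All 4 ESC-like arrays were above parental ESCs, by 0.61, 0.56 and 0.66 ± 0.11 (SD, n = 2) for co-injection. The stretch of its promoter from 86 to 20 bases before the RefSeq start (GRCm38.p6, chr3:50443633-50443699, minus strand) is shown because it holds the C/EBP-ATF response element TGATGNAA, in capitals, once on each strand.
Slc7a11: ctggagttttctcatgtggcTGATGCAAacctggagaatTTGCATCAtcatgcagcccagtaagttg
The element was searched on both strands of windows from 250 bases before to 50 after each start. It was in 3.97% of all windows and in those of 4 of the 42 transporters with a window (9.52%), namely Slc7a11, Slc1a4, Slc7a7 and Slc6a21, against 4.51% of all 27025 genes. Such a match is a description of the sequence and does not show binding, which was not measured here.

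Among cationic carriers, Slc7a1, the main arginine carrier of many cells, was lower in all ESC-like arrays. It stood at 11.03 in parental ESCs, 10.30 after homologous injection, 10.23 after heterologous injection, and 10.60 and 10.72 after co-injection. It lies on chromosome 5. Slc7a2, Slc7a4 and Slc7a14 had means below 7.49 and differed from parental ESCs by at most 0.40.

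In the SLC6 family, which is known mostly for neurotransmitter carriers, 5 of 18 members were among the brighter ones. Slc6a9, a glycine carrier, stood at 9.74 in parental ESCs, 10.29 after homologous injection, 9.82 after heterologous injection, and 10.30 and 10.48 after co-injection. Slc6a6, the taurine carrier, ran from 11.42 in the heterologous array to 11.86 in the homologous one. Slc6a15, a carrier of branched-chain amino acids and proline, differed from parental ESCs by -0.34, -0.36 and -0.37 after homologous, heterologous and co-injection. The carriers of dopamine, serotonin and noradrenaline were all among the dimmer members.

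A proton-coupled and an SLC43 carrier were highest in the heterologous array. Slc36a4, a carrier of proline and tryptophan on chromosome 9, had values of 7.96 in parental ESCs, 7.99 after homologous injection, 8.86 after heterologous injection, and 7.87 and 7.74 after co-injection. The heterologous array alone was high, 1.86-fold above parental ESCs. Slc43a3, now known as a nucleobase carrier in spite of its family, had 9.21, 9.31, 9.97, 9.49 and 9.48 in the same order and was also highest there. Slc43a2, which lets out large neutral amino acids, stayed between 8.46 and 8.70, and Slc43a1 was highest after homologous injection, 0.37 above parental ESCs. Of the brighter members not yet named, Slc36a1 of the lysosome, Slc38a10, and Slc6a17 of synaptic vesicles differed by at most 0.25 in size in any comparison. The last one, Slc38a6, differed from parental ESCs by -0.16, 0.30 and -0.06 after homologous, heterologous and co-injection.

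**Figure D3:**
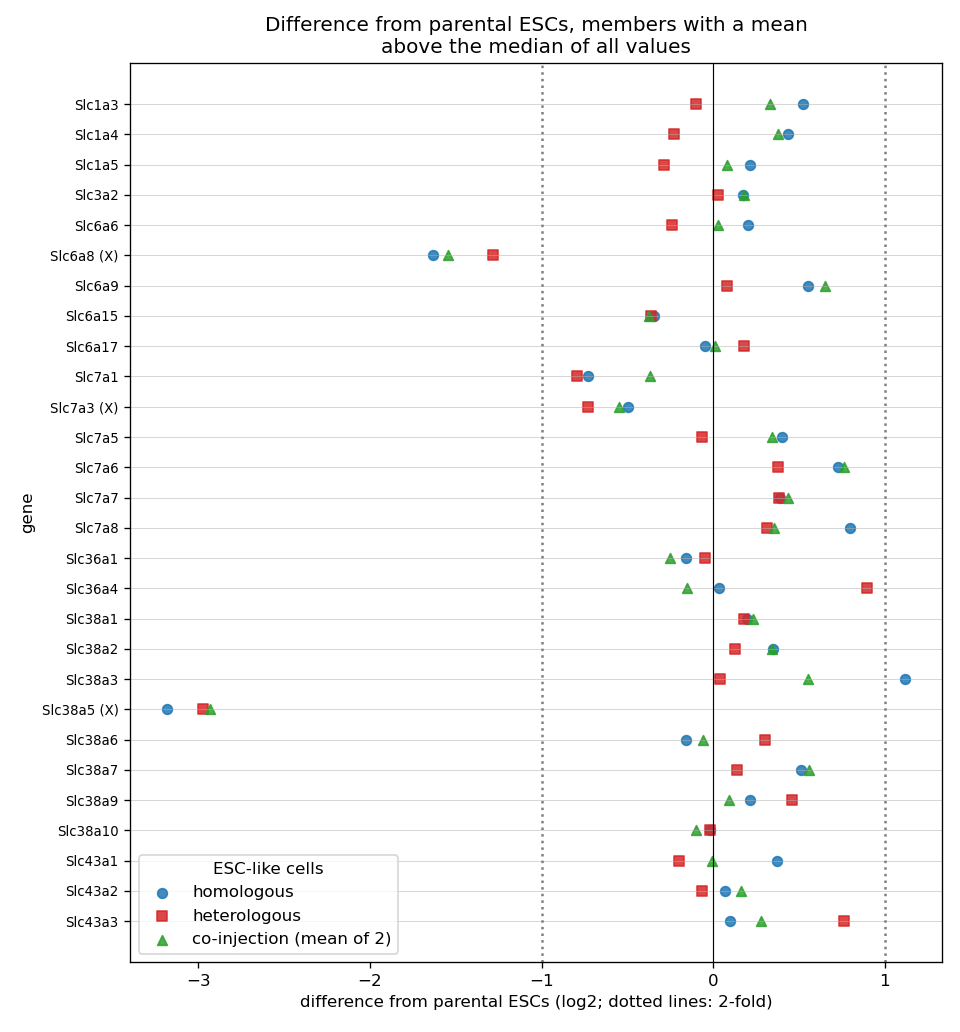
Log2 differences from parental ESCs (x axis) for the 28 brighter transporters (y axis), with 1 point each for homologous, heterologous and co-injection cells (mean of 2 arrays) and dotted lines at 2-fold. Slc38a5 and Slc6a8 lie beyond the lower line in all 3 comparisons, and Slc38a3 passes the upper line after homologous injection.

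The comparison of heterologous with homologous injection sets cells recovered from different recipient strains beside each other. Only Slc38a3 passed 2-fold, being 2.11-fold lower in the heterologous array (-1.08), so 0 transporters were higher and 1 was lower, where 2.41% of named genes were higher and 0.647% lower. The next lowest differences were those of Slc1a4 (-0.66) and Slc1a3 (-0.62). The highest were those of Slc36a4 (0.86), Slc43a3 (0.67) and Slc38a6 (0.46), an SLC38 carrier of poorly known substrate. Over the 28 brighter members the median was -0.14, over all brighter named genes it was -0.01, and 19 of the 28 (67.9%) were lower in the heterologous array, as were 52.2% of all brighter named genes. All 6 brighter SLC7 members and all 3 brighter SLC1 members were among those 19. Of these, Slc7a7 (-0.006) and Slc7a1 (-0.06) were smaller in size than the median gap of the co-injection pair, 0.07. With cyclic loess, a smoothing that fits each pair of arrays to each other, applied on top of the deposited values, the median was -0.11 and 16 of the 28 (57.1%) were lower, against a median of 0.02 and 45.7% over all brighter named genes.

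Co-injection set against heterologous injection compares cells recovered with and without added fetal fibroblasts in the same recipient strain. Slc6a14 was over 2-fold higher (2.22-fold, 1.15) and Slc36a4 over 2-fold lower (2.07-fold, -1.05), 1 transporter in each direction, where 0.361% of named genes were higher and 2.99% lower. Without the second co-injection array the values were just inside 2-fold, 0.996 for Slc6a14 and -0.98 for Slc36a4. After Slc6a14 the highest were Slc1a4 (0.60) and Slc6a9 (0.57), and after Slc36a4 the lowest were Slc43a3 (-0.49) and Slc38a9 (-0.37), for which the second probe set gave 0.02 and the mean of both -0.17. The median over the 28 brighter members was 0.17, against 0.03 over all brighter named genes. It was 0.15 with the first and 0.18 with the second co-injection array alone, and 0.14 against -0.02 with cyclic loess. Both of these comparisons use the single heterologous array, so the injected condition and differences between recovered lines cannot be told apart.

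Taken array by array, 18 of the 28 brighter transporters (64.3%) were lower in the heterologous array than in the homologous and both co-injection arrays, where 41.6% of all brighter named genes were. With cyclic loess both shares were smaller, 15 of the 28 (53.6%) against 33.7%. The reverse order held for 8 of the 28 (28.6%), against 32.3%, and with cyclic loess for 9 (32.1%), against 41.7%. The 18 included Slc1a3, Slc1a4, Slc1a5, Slc3a2, Slc6a9, Slc7a1, Slc7a5 and Slc38a2. They also included Slc7a7 and Slc38a1, at only -0.006 and -0.015 in heterologous against homologous. The second probe set of Slc38a1 went the other way, at 0.09 there and -0.09 in co-injection against heterologous. The 8 included Slc6a8, Slc36a4, Slc38a9 and Slc43a3. All 4 ESC-like arrays lay above parental ESCs for 11 of the 28 (39.3%), against 25.6% of brighter named genes, and below for 7 (25%), against 29.6%. The fibroblast markers moved with the heterologous array too: all 12 were higher in it than in the homologous array, 8 of them over 2-fold. After co-injection 10 of the 12 were over 2-fold lower than in it. Of all named genes 2.41% were over 2-fold higher in the first comparison and 2.99% over 2-fold lower in the second. Col1a1 was at 11.21 in the heterologous array and between 8.85 and 9.27 in the other 4 arrays. The mean of 5 contractile markers was 10.9 in the heterologous array and between 9.08 and 9.75 elsewhere. Of 6 neural markers, 5 were higher in it than in the homologous array (45.4% of brighter named genes). After co-injection 5 of the 6 were lower than in it (42.9% of brighter named genes). Of 13 ESC markers, 10 were lower in it than in the homologous array (52.2% of brighter named genes). After co-injection 11 of the 13 were higher than in it (56.1% of brighter named genes). The part of the cells that carry any of these markers in the values of Slc36a4, Slc43a3, Slc38a3 and the 18 transporters was not tested.

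Genes of amino acid metabolism outside the transporter families were set beside them. Of 24 measured genes of the amino acid response, 21 were lower in the heterologous than in the homologous array, with a median of -0.26, and the median of co-injection against heterologous was 0.36. Over all brighter named genes 52.2% were lower in the first of these comparisons, with a median of -0.01, and 56.1% were higher in the second, with a median of 0.03. Asns, the enzyme that makes asparagine, stood at 12.41 in parental ESCs, 12.54 after homologous injection, 11.84 after heterologous injection, and 12.41 and 12.63 after co-injection. Against parental ESCs, Ddit4, an inhibitor of mTORC1, was the only response gene over 2-fold higher, by 1.95 after homologous and 1.15 after co-injection, and Cth, which makes cysteine from cystathionine, was the only one over 2-fold lower, at -1.06 after heterologous injection. The 18 measured tRNA synthetases for the cytosol had medians of -0.26 and 0.34 in the heterologous against homologous and co-injection against heterologous comparisons, with 15 lower in the first and 17 higher in the second.

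Of 28 measured genes of amino acid synthesis and breakdown, 6 are also response genes. Of the 28, 0 passed 2-fold from parental ESCs after homologous and co-injection. Of all named genes 1.45% and 0.647% were higher in these, and 1.6% and 1.44% lower. After heterologous injection 0 were higher and 1 was lower, Amt at -1.14, against 3.98% and 1.95%. In that comparison 20 were lower, with a median of -0.30, against 54.7% and -0.03 over all brighter named genes. Lower than in the homologous array were 19 (median -0.23), against 52.2%. Higher after co-injection than in the heterologous array were 22 (median 0.25), against 56.1%. Gldc, which with Amt belongs to the glycine cleavage system, was at 9.89 in the heterologous array and between 10.85 and 11.27 in the others. Among 33 genes of amino acid sensing and mTORC1, Castor2, of the family that senses arginine, was 1.48, 1.26 and 0.98 above parental ESCs, and Sesn1, a sestrin, was at -0.90, -1.17 and -0.94. Rragd, a GTPase that recruits mTORC1 to lysosomes, was at 1.00 after heterologous injection. Among 21 amino acid and peptide carriers of other families, the peptide carriers Slc15a1 and Slc15a2 lay apart, at -1.24, -1.91 and -1.32 and at 1.40, 0.77 and 1.24, and the list's medians lay between -0.02 and 0.03 in all 5 comparisons. With cyclic loess the last of these medians, of co-injection against heterologous, turned to -0.08. In that comparison the median of the sensing and mTORC1 list was 0.05, and 0.01 with cyclic loess.

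**Figure D4:**
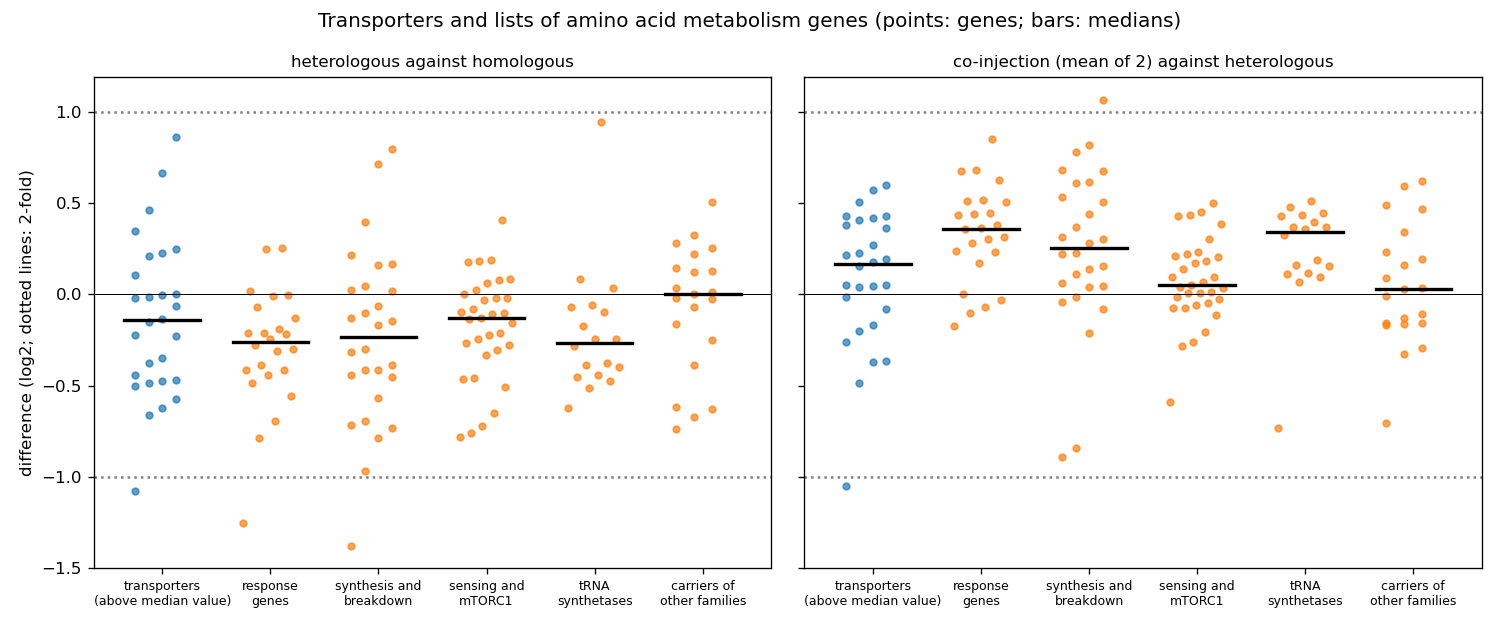
Log2 differences (y axis) of heterologous against homologous cells and of co-injection against heterologous cells for the 28 brighter transporters and the measured genes of 5 other lists, with each gene as a point and the median as a bar. Medians lie below 0 in the first panel for all sets but the carriers of other families, whose median is 0. In the second panel all medians lie above 0, with those of the carriers (0.03) and of sensing and mTORC1 (0.05) near the 0.03 of all brighter named genes.

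The 31 dimmer transporters were close to level over the arrays: apart from Slc1a1, Slc6a14 and Slc7a11 each stayed within 0.5. How many of all dimmer named genes did so was not counted. For Slc36a2, Slc3a1, Slc6a2, Slc6a21 and Slc7a10 at least 3 arrays carried the same value to within 0.0001, and their differences of 0 are those of tied values. The median difference of the 31 genes from parental ESCs was -0.01, -0.04 and 0.07 after homologous, heterologous and co-injection.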

How the data were processed

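The authors extracted probe intensities with GCOS, applied the robust multi-array average (RMA) with quantile normalization and deposited log2 expression values of 35556 probe sets for each of the 5 arrays. For their versions and the build of the array annotation, the sources used here give nothing. The values were used without further normalization. Symbols came from the platform annotation, which gives 1 symbol for 21789 probe sets, several for 1621 and none for 12146, and only the first kind were used. For a gene with several probe sets, the one with the highest mean over the 5 arrays was taken. Chromosomes, neighbouring genes and promoters came from RefSeq (GRCm38.p6). Of the 59 transporters, 42 had a promoter window. One gene of the SLC38 family is not reported here.

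Each difference is 1 log2 value less another, with the co-injection arrays averaged first, and the 2-fold rule follows the study's methods. With 1 array in at least 1 group of every comparison, the main values carry no p-value, and limma was run as an alternative. Named transporters were those over 2-fold from parental ESCs, the 3 largest differences in each direction between heterologous and homologous and between co-injection and heterologous cells, and 12 known for ESCs or for the amino acid response. Other members are given to account for the families and were chosen after their values were seen. From the other lists, up to 4 genes over 2-fold per comparison were named, together with Asns. Tdh had no probe set of its own symbol. The transporters and all lists were chosen with earlier results of these data known.

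Alternatives were 1.5-fold and 3-fold thresholds, leaving out genes with a mean under 7.49, leaving out X-linked members, the mean of a gene's probe sets, cyclic loess, leaving out each co-injection array, and limma 3.58.1 (lmFit and eBayes over the 5 arrays, p-values adjusted by Benjamini-Hochberg). Scanner files were not used here, so background correction and scan batches were not examined. Python 3.11.15, numpy 2.4.6, pandas 2.3.3, matplotlib 3.10.9 and R 4.3.3 were used.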

Additional observations from a re-analysis of the deposited data

Results flagged for a closer look

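Among the 20 transporters named by rule, 7 stood above parental ESCs in every array of one ESC-like condition and below them in every array of another, which gave 14 pairs of conditions. That is 35% of the 20, and such opposite directions were found for 20 of all 59 transporters (33.9%) and for 37.1% of all named genes, so the count is near the background. With 1 or 2 arrays a condition these differences were not tested, and several are within the 0.36 that marks the 99th percentile of the gaps between the co-injection arrays.

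The largest was that of Slc36a4, whose difference from parental ESCs was 1.05 larger in heterologous than in co-injection cells and 0.19 larger in homologous than in co-injection cells. Slc1a4 was above parental ESCs after homologous and co-injection and below them after heterologous injection, so that homologous minus heterologous was 0.66 and heterologous minus co-injection was -0.60. The same order held for Slc1a3 (0.62 and -0.43), Slc1a5 (0.50 and -0.37), Slc7a5 (0.47 and -0.41) and Slc43a2 (0.13 and -0.23). Slc38a6 went the other way (-0.46 and 0.36). Fibroblast markers differed in the same arrays, with a mean of 9.16 in the heterologous array and between 7.10 and 7.79 in the other 4. The mean of neural markers was 9.56 there and between 7.76 and 8.81 elsewhere. That of ESC markers was 11.33 there and between 11.57 and 11.89 elsewhere. The part of the cells with these markers in the differences was not tested.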

How the results depend on the processing

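The deposited values allow a fold rule but no error between conditions, and counts of 1 or 2 transporters move easily with the threshold. At 1.5-fold, 4 transporters were higher and 4 lower after homologous injection, 2 higher and 4 lower after heterologous injection, and 4 higher after co-injection than in parental ESCs, 2 were higher and 3 lower in heterologous than in homologous cells, and 2 were higher in co-injection than in heterologous cells. At 3-fold, 0 were higher after homologous and co-injection, and 1 was lower after heterologous and 1 after co-injection. In heterologous against homologous cells 0 were lower, and in co-injection against heterologous cells 0 were higher and 0 lower. The shares of all named genes past 1.5-fold and 3-fold were not counted. Whether these counts are above or below the background is therefore not known. Without X-linked members 0 were lower in all 3 comparisons with parental ESCs, and 0 were higher after co-injection, whether set against parental ESCs or heterologous cells. Without genes of a mean under 7.49, 0 were higher after co-injection in these 2 comparisons, which both rested on Slc6a14. Leaving out 1 co-injection array gave between 0 and 1 transporters higher and between 0 and 1 lower than in heterologous cells. The zeros came without the second co-injection array, where the values were 0.996 for Slc6a14 and -0.98 for Slc36a4. The cause of these moves was not tested beyond the choice itself.

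Cyclic loess and the mean of probe sets left all 10 counts as they were, and cyclic loess shared every transporter over 2-fold. The limma fit gave 0 transporters at an adjusted p under 0.05 in each comparison, and 0 of 19938 named genes, with 24, 22, 22, 19 and 21 of the 59 at an unadjusted p under 0.05 (between 32.2% and 40.7%, against between 27.5% and 34.3% of all named genes). It rests on 1 residual degree of freedom, so these zeros do not show that the transporters were unchanged. Of 100 values of single named transporters, 26 were counted as moved with cyclic loess and 8 with the mean of probe sets. For values within 2-fold, moved means a change above the SD of the co-injection pair. Values over 2-fold were only checked for staying over 2-fold with the same sign, which all did in these settings. No paired analysis was possible because the parental, homologous and heterologous conditions have 1 array each and the labels match no arrays between conditions.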
